A study of Mus musculus with 48 samples.

Results

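Expression of Hif3a and of 8 genes of the glucocorticoid response (Fkbp5, Tsc22d3, Sgk1, Zbtb16, Per1, Pdk4, Klf9 and Nr3c1) was examined in 2 sorted cell populations of the neonatal mouse brain after systemic exposure to interleukin 1B (IL1B). The 9 genes were found by their names in the scanner annotation, with control spots left out, and make up 9 of 34797 gene names and 13 of 55681 probes on the array. The list was chosen by its differences between IL1B and PBS on these arrays, so those differences are given as a description, with no test. Male Swiss pups received PBS or IL1B (10 ng/g) intraperitoneally from postnatal day 1 to day 5, and were killed at P5, a few hours after the last injection, or at P10. The injections are a model of the inflammation to which preterm infants are exposed. O4+ cells (premyelinating cells of the oligodendrocyte lineage) and then CD11B+ cells (microglia and other myeloid cells) were taken from the same brains by magnetic sorting, and brains were pooled within a sample. The 8 groups were O4+ or CD11B+ cells, at P5 or P10, from pups given PBS or IL1B, each with 6 one-colour arrays. No other allele, transgene or agent was given for any group.

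The glucocorticoid receptor, encoded by Nr3c1, is held in the cytoplasm by chaperones until a steroid binds it, and then enters the nucleus and binds response elements in the DNA. Fkbp5, Tsc22d3, Sgk1, Zbtb16, Per1, Klf9 and Pdk4 are induced by glucocorticoids in many tissues, and Fkbp5 in turn lowers the receptor's affinity for its ligand. Hif3a encodes an alpha subunit of the hypoxia-inducible factors, which pair with ARNT proteins on DNA, and several of its splice forms oppose HIF1A. In the brain, glucocorticoids restrain inflammatory gene expression in microglia and act on the maturation of oligodendrocytes.

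RefSeq promoter windows (mouse, GRCm38.p6) were found for 7 of the 9 genes, 15 windows in all, each holding the 250 bases before a transcription start. The glucocorticoid response palindrome, which is AGAACA and its reverse complement separated by any 3 bases, occurred in 3 of 32851 such windows (0.00913%), 1 of which belonged to Sgk1. Its single arm AGAACA was held by 16.1% of all windows and by 4 of the 15, namely 3 of Sgk1 and 1 of Tsc22d3. The E-box CACGTG, the site of the clock factors, was held by 6.02% of all windows and by 3 of the 15 (Fkbp5, Per1 and Sgk1). The hypoxia response core ACGTG, which lies within the E-box, was in 16.6% of all windows and in 4 of the 15 (Fkbp5, Klf9, Per1 and Sgk1). The cyclic AMP response element TGACGTCA was in 1.55% of all windows and in 0 of the 15. The window of Hif3a held none of these letters. All motifs were searched on both strands. The windows printed, 5′ to 3′ along the gene, are the Sgk1 window with the palindrome (chr10:21993640-21993889, + strand), the Per1 and Fkbp5 windows with an E-box (chr11:69098699-69098948, + strand, and chr17:28486150-28486399, - strand), and the Hif3a window (chr7:17062428-17062677, - strand), since Hif3a is the gene described in most depth. Capitals mark the motifs; in Sgk1 the first run of capitals is an E-box overlapping an AGAACA of the other strand, and the second is the palindrome, which starts 189 bases before the transcription start.
Sgk1: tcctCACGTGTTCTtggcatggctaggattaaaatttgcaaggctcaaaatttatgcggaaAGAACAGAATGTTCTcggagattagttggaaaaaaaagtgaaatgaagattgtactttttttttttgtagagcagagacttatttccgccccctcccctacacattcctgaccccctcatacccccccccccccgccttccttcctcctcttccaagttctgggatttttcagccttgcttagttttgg
Per1: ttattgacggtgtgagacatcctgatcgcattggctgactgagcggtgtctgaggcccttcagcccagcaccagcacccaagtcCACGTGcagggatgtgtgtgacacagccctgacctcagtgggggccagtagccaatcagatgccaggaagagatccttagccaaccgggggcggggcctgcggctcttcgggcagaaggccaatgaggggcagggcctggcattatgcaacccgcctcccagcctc
Fkbp5: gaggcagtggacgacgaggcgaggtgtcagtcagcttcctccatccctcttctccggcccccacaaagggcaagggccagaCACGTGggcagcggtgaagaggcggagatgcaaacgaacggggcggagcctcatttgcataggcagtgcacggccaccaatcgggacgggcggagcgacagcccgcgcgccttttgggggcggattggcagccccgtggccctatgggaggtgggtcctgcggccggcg
Hif3a: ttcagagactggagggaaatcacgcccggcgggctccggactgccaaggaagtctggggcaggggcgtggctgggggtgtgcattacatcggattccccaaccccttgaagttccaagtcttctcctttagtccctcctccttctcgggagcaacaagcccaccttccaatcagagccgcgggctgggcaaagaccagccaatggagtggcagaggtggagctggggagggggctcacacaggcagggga
A match in these windows is a description of the letters, and the arrays do not measure binding of the receptor.

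Levels are log2 signals after quantile normalization of all 48 arrays, and each gene is given by its brightest probe unless another is named. That probe was well above background on 48 of 48 arrays for each of the 9 genes. On single arrays, 52.9 to 65.4% of all probes were well above background, and arrays of a group correlated with r between 0.958 and 0.995 over probes. The markers separated the populations. The mean log2 signal of 10 oligodendrocyte lineage markers lay between 14.09 and 15.52 on O4+ arrays and between 9.49 and 11.60 on CD11B+ arrays. That of 10 microglia markers lay between 16.21 and 16.80 on CD11B+ arrays and between 12.06 and 15.02 on O4+ arrays. In the O4+ P5 IL1B group it was 14.60 to 15.02, above that of the oligodendrocyte lineage markers (14.09 to 14.30) on every array. The microglia markers were thus measurable in all O4+ groups. In sorted bulk samples, fewer cells of a type and less RNA per cell cannot be told apart. Among the CD11B+ PBS arrays, 1 at each age stood apart from its group by its markers. P10 replicate 6 had a mean log2 signal of 11.96 over 8 neutrophil and monocyte markers, against 9.53 to 9.92 on the other 5 arrays, and of 9.66 over 6 astrocyte markers, against 8.36 to 8.77. P5 replicate 5 had 10.44 over the astrocyte markers, against 7.99 to 8.96, 8.28 over 4 pericyte markers, against 6.28 to 7.09, and 8.34 over 6 neuron markers, against 7.27 to 7.61. Values without each of them stand beside the results that rest on these groups. The labels do not say whether samples with the same number came from the same animals, and p-values measure the spread between these samples.

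The group means of Hif3a covered the widest range of the 9 genes, and its level followed both the cell type and the treatment at P5. In CD11B+ cells at P5 the lowest, median and highest log2 levels were 10.16, 10.35 and 10.78 with PBS and 12.15, 12.57 and 12.83 with IL1B. In O4+ cells at P5 they were 6.84, 7.33 and 8.43 with PBS and 9.89, 10.49 and 10.73 with IL1B. IL1B arrays were above every PBS array in both populations. At P10 the CD11B+ levels were 9.80, 10.16 and 10.32 with PBS and 9.80, 9.89 and 9.98 with IL1B. At P10 the O4+ levels were 5.79, 6.12 and 6.38 with PBS and 5.86, 6.17 and 6.37 with IL1B, so that treated and control arrays overlapped in both populations. In the order of the group means, CD11B+ P5 IL1B (12.53 ± 0.25, SD, n = 6) stood alone at the top. O4+ P5 IL1B (10.43 ± 0.29) and CD11B+ P5 PBS (10.42 ± 0.27) came next and overlapped, their means 0.0053 apart. The CD11B+ P10 groups followed (10.08 ± 0.20 with PBS and 9.89 ± 0.06 with IL1B) and also overlapped with their neighbours. O4+ P5 PBS (7.48 ± 0.58) lay between them and the 2 O4+ P10 groups (6.16 ± 0.19 with IL1B and 6.12 ± 0.23 with PBS), with no overlap on either side.

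**Figure D1:**
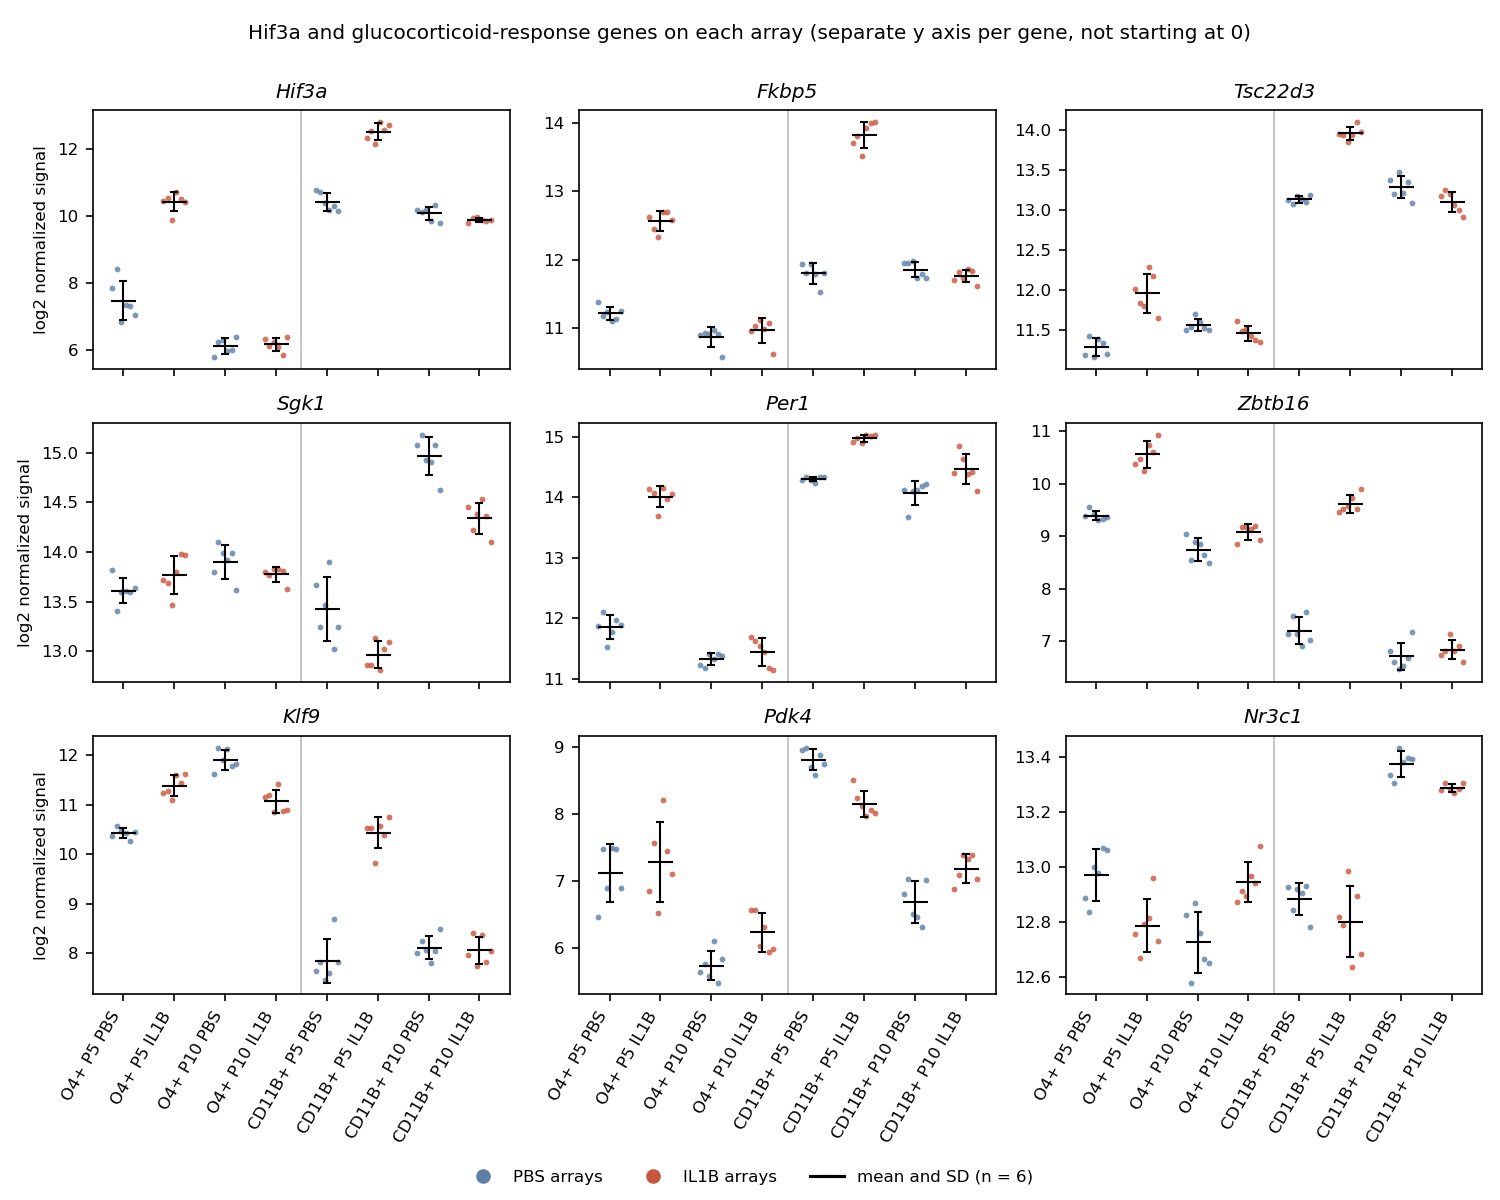
Log2 normalized signal of each of the 9 genes (a panel each, with vertical axes of their own that do not start at 0) in the 8 groups, with 1 point per array, blue for PBS and red for IL1B, and a line with error bars for the group mean and SD (n = 6). The P5 IL1B arrays of Hif3a, Fkbp5, Zbtb16 and Per1 stand above the P5 PBS arrays of the same population, while at P10 the treated and control arrays of Hif3a and Fkbp5 overlap.

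Hif3a was read by 3 probes, all on the minus strand of chromosome 7 (mm9). The main probe (chr7:17616855-17616914) lies at base 6374 of the transcript, and the others at base 2418 (chr7:17620811-17620870) and base 534 (chr7:17636526-17636585). The probe at base 2418 was well above background on 30 of 48 arrays and moved as the main probe did. At P5 in O4+ cells it was above background on 0 of 6 PBS arrays and on 6 of 6 IL1B arrays, at least 1.78-fold higher. A bound sets the mean of the bright group against the lowest signal that is well above background. In CD11B+ cells at P5 its log2 difference between IL1B and PBS was 1.09 (SE 0.26, n = 6 each), with 5 of 6 IL1B arrays above every PBS array. The probe at base 534 was dim in all groups, with group means between 4.15 and 5.26, and its IL1B differences at P5 were 0.89 (SE 0.44) in O4+ and 0.85 (SE 0.30) in CD11B+ cells, with overlapping arrays. With the mean over the 3 probes in place of the main probe, the direction of each P5 difference was kept.

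**Figure D2:**
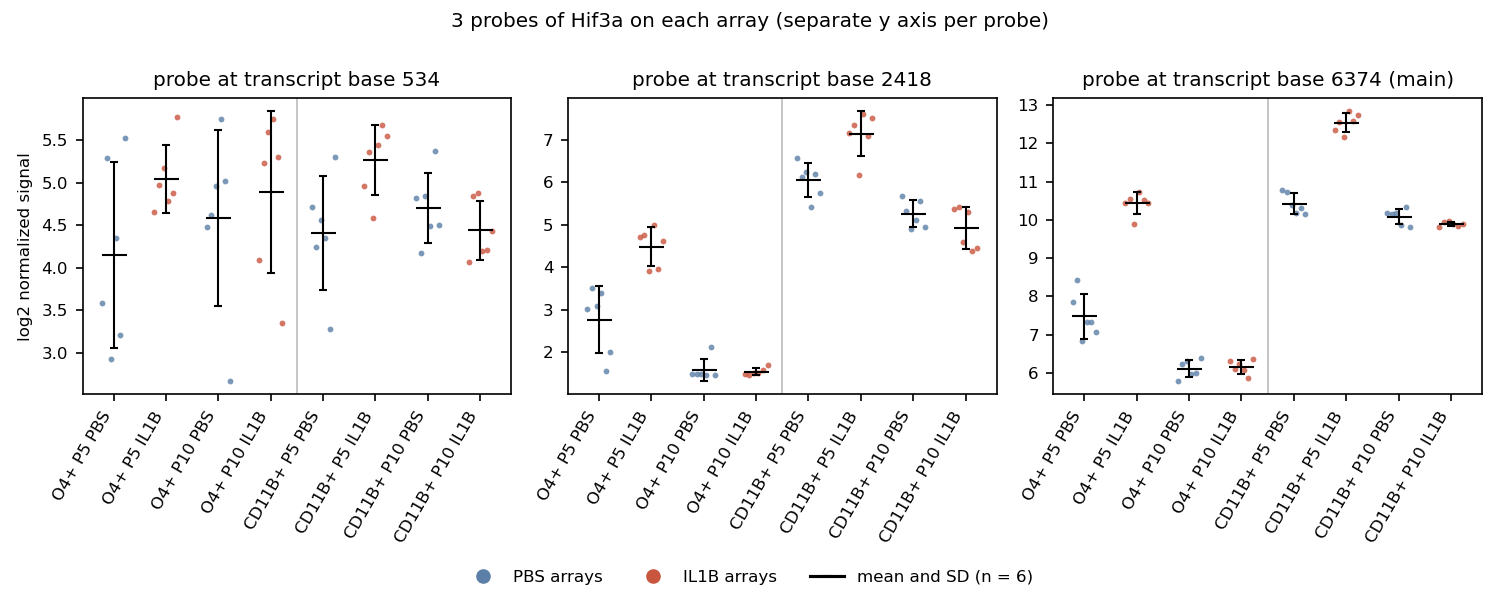
Log2 normalized signal of the 3 Hif3a probes (a panel each, ordered by transcript base, with vertical axes of their own) on every array of the 8 groups, with the group mean and SD (n = 6). The probes at bases 2418 and 6374 are higher in CD11B+ than in O4+ cells and higher with IL1B at P5, and the arrays of the probe at base 534 overlap between all groups, with means between 4.15 and 5.26.

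At P5, 6 of the 9 genes passed the threshold for a difference between IL1B and PBS in O4+ cells (adjusted p under 0.05 by limma and group medians over 1.5-fold apart), all 6 higher with IL1B, beside 5.01% of all probes (3.49% higher, 1.51% lower). The median log2 difference over the 9 genes was 0.96, against -0.04 over all probes. In 6 of 9 genes the arrays of the groups did not overlap, beside 11.5% of all probes. In CD11B+ cells 6 genes were higher and 1 lower, beside 9% of all probes (3.98% higher, 5.01% lower), the median was 0.83 against -0.02, and the groups did not overlap in 7 of 9 genes, beside 15.8% of all probes. Since the 9 genes were chosen with these differences known, nothing is read from their counts.

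Among the targets that act on signalling and transcription, Hif3a was 8.92-fold higher by group medians in O4+ cells (log2 difference of means 2.95, SE 0.25, n = 6 each) and 4.65-fold higher in CD11B+ cells (2.11, SE 0.15). Per1, a repressor of the circadian clock that also has its own glucocorticoid response element, had O4+ levels (lowest, median, highest) of 11.52, 11.88 and 12.10 with PBS and 13.69, 14.06 and 14.15 with IL1B, a difference of 2.16 (SE 0.10). In CD11B+ cells, where Per1 was 14.24, 14.31 and 14.34 with PBS and 14.90, 14.99 and 15.04 with IL1B, the difference was 0.67 (SE 0.04). The Per1 arrays of the groups were apart in both populations, and the treated O4+ arrays stayed below every control CD11B+ array. Zbtb16, which encodes the zinc finger repressor PLZF, went from 9.30, 9.38 and 9.55 to 10.24, 10.54 and 10.94 in O4+ cells (1.17, SE 0.11). In CD11B+ cells Zbtb16 was 6.90, 7.13 and 7.55 with PBS and 9.47, 9.55 and 9.90 with IL1B (2.42, SE 0.12). Klf9, a Krüppel-like factor that responds to glucocorticoids and thyroid hormone, was 10.26, 10.44 and 10.57 with PBS and 11.11, 11.36 and 11.63 with IL1B in O4+ cells (0.96, SE 0.09). In CD11B+ cells Klf9 was 7.47, 7.74 and 8.70 with PBS and 9.83, 10.53 and 10.76 with IL1B, a 6.93-fold difference (2.59, SE 0.21). For Klf9 and Zbtb16 all arrays with IL1B were again above all arrays with PBS. The highest CD11B+ PBS level of Klf9 was on P5 replicate 5, the array with the high astrocyte, pericyte and neuron markers, and without it the Klf9 difference was 2.76. Without that array the Fkbp5 difference in CD11B+ cells was 1.97, that of Hif3a 2.09 and that of Zbtb16 2.49, and the call of none of the 9 genes changed.

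Among the feedback and anti-inflammatory targets, Fkbp5, the receptor's co-chaperone, was 11.10, 11.20 and 11.37 with PBS and 12.33, 12.61 and 12.70 with IL1B in O4+ cells (1.35, SE 0.07, 2.64-fold by medians). In CD11B+ cells Fkbp5 was 11.53, 11.80 and 11.94 with PBS and 13.51, 13.87 and 14.01 with IL1B (2.03, SE 0.10, 4.20-fold). Tsc22d3, which encodes GILZ, an inhibitor of NF-kB and AP-1 activity, was 11.16, 11.26 and 11.42 with PBS and 11.64, 11.92 and 12.29 with IL1B in O4+ cells (0.68, SE 0.11). In CD11B+ cells Tsc22d3 was 13.08, 13.13 and 13.19 with PBS and 13.86, 13.95 and 14.11 with IL1B (0.83, SE 0.05). Every treated array of both genes was above every control array. The O4+ difference of Tsc22d3 lay close to the fold threshold, which is set on group medians. The ratio of medians fell under it without IL1B replicate 1 (difference of means 0.67), replicate 4 (0.61) or replicate 5 (0.64). It also did so with the deposited normalized values (0.54).

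The remaining 3 genes were not called in O4+ cells and had negative differences in CD11B+ cells. Sgk1, a serine/threonine kinase of ion transport and cell survival, was 13.41, 13.60 and 13.81 with PBS and 13.47, 13.76 and 13.98 with IL1B in O4+ cells (0.16, SE 0.09). In CD11B+ cells the Sgk1 difference was -0.46 (SE 0.14), and 3 of 6 IL1B arrays were below every PBS array. Pdk4, a kinase that shuts down pyruvate dehydrogenase, overlapped between the groups in O4+ cells (0.16, SE 0.28). In CD11B+ cells Pdk4 was 8.58, 8.82 and 8.99 with PBS and 7.97, 8.09 and 8.50 with IL1B, a difference of -0.66 (SE 0.10), with all treated arrays below all controls; with the slide as a block the difference was -0.68 and no longer passed the adjusted p. Nr3c1, the receptor itself, differed by -0.19 (SE 0.06) in O4+ and -0.08 (SE 0.06) in CD11B+ cells, with overlapping arrays in both.

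**Figure D3:**
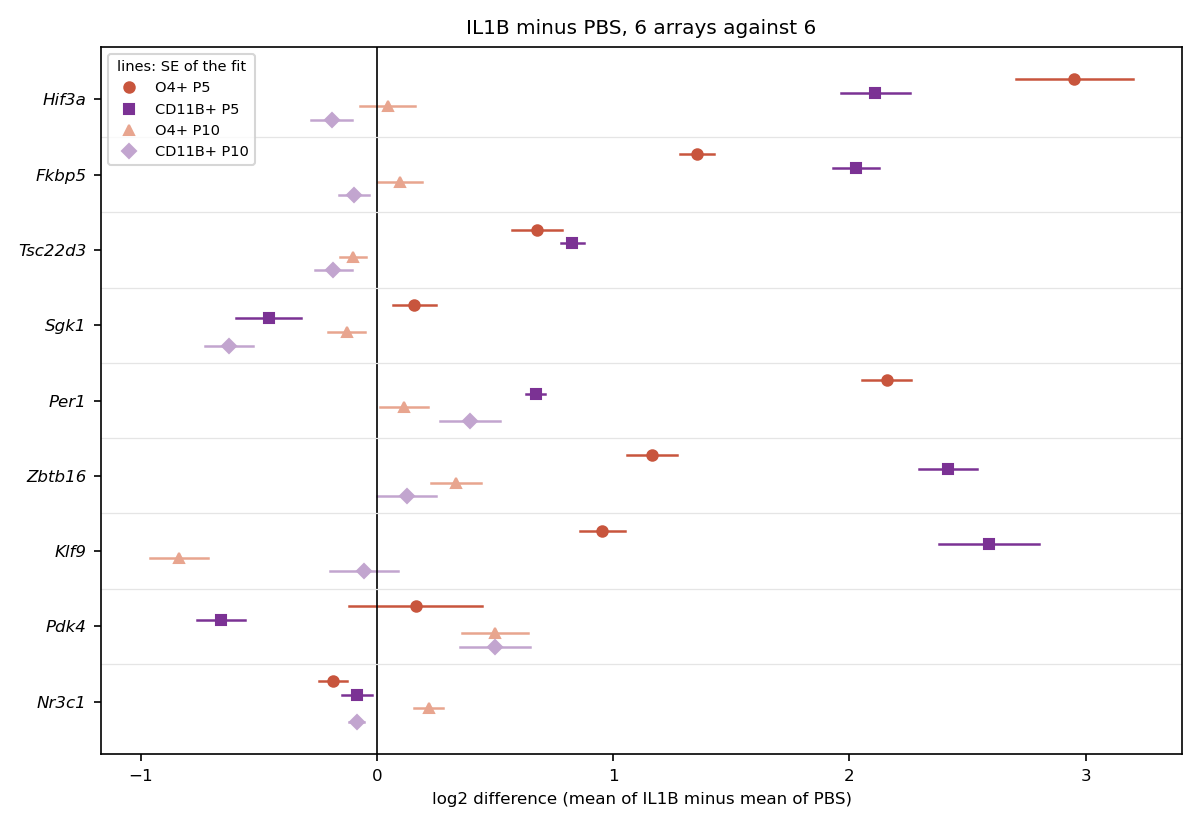
Log2 difference between IL1B and PBS (horizontal axis) of the main probe of each of the 9 genes, with lines for its SE, in O4+ and CD11B+ cells at P5 and P10 (6 arrays against 6). At P5 Hif3a, Fkbp5, Zbtb16, Klf9, Per1 and Tsc22d3 lie to the right of 0 in both populations, and at P10 the differences of Hif3a, Fkbp5 and Tsc22d3 lie between -0.19 and 0.10.

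Markers of other cell types moved with treatment at P5. In O4+ cells 9 of 10 microglia markers were higher with IL1B (median log2 difference 1.32), their mean signal lying between 13.08 and 13.81 on the PBS arrays and between 14.60 and 15.02 on the IL1B arrays. All 8 neutrophil and monocyte markers were also higher there (median 4.09), their mean signal being 3.41 to 4.30 with PBS, where 3 of the 8 were above background on no array, and 5.71 to 9.27 with IL1B. In CD11B+ cells at P5, 0 of 10 microglia markers were higher and 1 was lower, and all 8 neutrophil and monocyte markers were higher (median 3.73; 9.40 to 10.56 with PBS and 12.97 to 13.76 with IL1B). Of 8 endothelial markers, 5 were lower with IL1B in each population (medians -0.81 in O4+ and -0.86 in CD11B+ cells), and 1 was higher in CD11B+ cells. Of 4 pericyte markers, 0 were called in O4+ cells and 2 were lower in CD11B+ cells. The part of these cells in the differences of the 9 genes was not tested.

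Array slides held unequal numbers of each group, and where a slide held both groups of a comparison its own difference could be taken. For Hif3a in O4+ cells at P5, 2 slides held both groups. It was 2.81 on 1 slide (1 IL1B array against 4 PBS arrays) and 3.50 on the other (1 against 2). In CD11B+ cells it was 2.52 on 1 slide (4 IL1B arrays against 1 PBS array). For Klf9 the values on the same slides were 0.88 and 0.77 in O4+ cells and 2.74 in CD11B+ cells.

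At P10 the IL1B and PBS arrays of most of the genes overlapped. In O4+ cells 1 of the 9 genes passed the threshold, Klf9, which was lower with IL1B, beside 4.12% of all probes (2.61% higher, 1.51% lower), and in CD11B+ cells 1, Sgk1, also lower, beside 2.01% (1.02% higher, 0.988% lower). The medians over the 9 genes were 0.10 and -0.09, against -0.02 and 0.00 over all probes, and 2 of the 9 genes had groups that did not overlap in each population (beside 6.24% and 3.88% of all probes). Klf9 in O4+ cells was 11.61, 11.87 and 12.15 (lowest, median and highest) with PBS and 10.86, 11.03 and 11.43 with IL1B, a difference of -0.84 (SE 0.12) in the direction opposite to that at P5. All treated arrays were below all controls. Nr3c1 in O4+ cells was 12.58, 12.71 and 12.87 with PBS and 12.87, 12.93 and 13.08 with IL1B (0.22, SE 0.06), with no overlap but a difference under the fold threshold; its second probe, at base 2285, gave -0.17 (SE 0.11). Hif3a (0.05, SE 0.12), Fkbp5 (0.10, SE 0.09), Per1 (0.12, SE 0.10), Tsc22d3 (-0.10, SE 0.06) and Sgk1 (-0.13, SE 0.08) overlapped between treated and control arrays. Zbtb16 (0.34, SE 0.11) and Pdk4 (0.50, SE 0.14) had positive differences under the threshold. By group medians Pdk4 passed it without IL1B replicate 5 (difference of means 0.56) or replicate 6 (0.55). In the same comparison 6 of 10 microglia markers, 6 of 8 neutrophil and monocyte markers and 3 of 6 astrocyte markers were higher with IL1B. Their part was not tested.

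Sgk1 in CD11B+ cells at P10 was 14.63, 15.00 and 15.18 with PBS and 14.10, 14.37 and 14.53 with IL1B, a difference of -0.63 (SE 0.10) with no overlap. It missed the threshold, whose fold is taken from group medians, without PBS replicate 1 (difference of means -0.60), replicate 2 (-0.58) or replicate 5 (-0.60). It also missed it with the slide as a block (-0.46) and with the deposited normalized values (-0.54). Pdk4 (0.50, SE 0.15) and Per1 (0.40, SE 0.13) were higher than every PBS array on 5 of 6 IL1B arrays. Without PBS replicate 6, the array with the high neutrophil and monocyte signal, the probes passing the threshold in this comparison went from 1120 to 2595. By group medians Pdk4 then passed it too (difference of means 0.57), while Sgk1 stayed past it (-0.69). Hif3a differed by -0.19 (SE 0.09) with all arrays and by -0.25 without replicate 6, and Fkbp5 by -0.10 (SE 0.06) and -0.12. The Nr3c1 groups did not overlap either, with a difference of -0.09 (SE 0.03). Of the 8 neutrophil and monocyte markers, limma called 0 in this comparison (median 1.31), with 8 at an unadjusted p under 0.05. Their mean signal was 10.63 to 11.60 with IL1B, 11.96 on PBS replicate 6 and 9.53 to 9.92 on the other PBS arrays. The mean signal of the 10 oligodendrocyte lineage markers was 11.07 to 11.60 with PBS and 10.52 to 10.87 with IL1B, with 1 of the 10 called lower (median -0.28). The part of these cells in the Sgk1 difference was not tested.

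Cell type and age were compared in the PBS groups alone, where no IL1B had been given. These comparisons share their PBS arrays with the treatment comparisons above and with each other. Most of the 9 genes differed between the populations, in both directions. At P5, 2 were higher and 5 lower in O4+ than in CD11B+ cells, beside 41.6% of all probes past the same threshold (19.8% higher, 21.8% lower). At P10, 2 were higher and 7 lower, beside 42.4% (22.2% higher, 20.2% lower). The arrays of the populations did not overlap in 7 of the 9 genes at P5 (beside 42.4% of all probes) and in 9 at P10 (beside 43.5%). The median differences over the 9 genes were -0.59 at P5 and -0.99 at P10, against -0.05 and 0.00 over all probes. Hif3a was 8.11-fold lower in O4+ than in CD11B+ cells at P5 (log2 difference -2.95, SE 0.25, adjusted p = 4.74e-07, limma with Benjamini-Hochberg adjustment over all probes) and 16.4-fold lower at P10 (-3.97, SE 0.12, adjusted p = 5.4e-11). Its probe at base 2418 was above background on 0 of 6 O4+ PBS arrays at either age and was at least 5.24-fold lower there at P5 and at least 2.63-fold lower at P10. On the 1 slide that held both groups at P5 (2 O4+ arrays against 1 CD11B+ array), the Hif3a difference was -3.20.

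Klf9 was on the other side: it was 6.50-fold higher in O4+ cells at P5 (2.58, SE 0.18, adjusted p = 6.91e-08) and 14.0-fold higher at P10 (3.79, SE 0.12, adjusted p = 9.33e-11), and Zbtb16 was 4.75-fold (2.19, SE 0.11) and 4.32-fold (2.04, SE 0.13) higher. Per1 was lower in O4+ cells, with differences of -2.45 (SE 0.08) at P5 and -2.75 (SE 0.09) at P10, as was Tsc22d3 with -1.86 (SE 0.05) and -1.73 (SE 0.07). Pdk4 differed by -1.69 (SE 0.18) and -0.95 (SE 0.15), and Fkbp5 by -0.59 (SE 0.07) and -0.99 (SE 0.08). In all of these genes no O4+ PBS array overlapped a CD11B+ PBS array of the same age. Fkbp5 at P5 lay close to the fold threshold and fell under it without O4+ PBS replicate 2 (-0.58), replicate 4 (-0.56) or replicate 5 (-0.57). Sgk1 overlapped at P5 (0.19, 95% confidence interval -0.11 to 0.49, adjusted p = 0.286) and was lower in O4+ cells at P10 (-1.07, SE 0.10, adjusted p = 2.15e-06). Nr3c1 did not pass at P5 (0.09, interval -0.02 to 0.20, adjusted p = 0.18) and was lower in O4+ cells at P10 (-0.65, SE 0.06, adjusted p = 6.28e-07). The dimmer Nr3c1 probe, at base 2285, gave -0.96 (SE 0.06) at P5 and so disagreed with the main probe at that age. Without CD11B+ PBS replicate 6 the 9 genes still passed at P10, with differences of -4.02 for Hif3a and 3.87 for Klf9. Without CD11B+ PBS replicate 5 at P5 no call of the 9 genes changed, with differences of -2.97 for Hif3a, 2.75 for Klf9 and -0.64 for Fkbp5. No slide held both P10 PBS groups, so slide and population cannot be separated within a slide there; with the slide as a random block the 9 genes passed at P10 as before.

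From P5 to P10 in PBS pups, 1 of the 9 genes rose and 3 fell in O4+ cells, beside 17.2% of all probes past the threshold (8.09% higher, 9.14% lower). The ages did not overlap in 7 of the 9, beside 24.4% of all probes. Klf9 rose 2.69-fold (1.48, SE 0.09, adjusted p = 3.36e-07, limma), from 10.26, 10.44 and 10.57 (lowest, median and highest) to 11.61, 11.87 and 12.15. Hif3a fell, with a difference of -1.36 (SE 0.24, adjusted p = 0.000825), Pdk4 with -1.39 (SE 0.19, adjusted p = 0.000121) and Zbtb16 with -0.65 (SE 0.10, adjusted p = 0.000221). The P10 arrays of these 4 genes did not overlap the P5 arrays. Averaged over its 3 probes, the Hif3a difference was -0.70 and did not pass. The dim probe at base 534 gave 0.44 (SE 0.58). The probe at base 2418 gave -1.18 (SE 0.32, adjusted p = 0.0128, limma). That probe was well above background on 0 of 6 arrays at either age, so its difference is between background-level signals. By group medians Zbtb16 fell under the fold threshold without P10 replicate 2 (difference of means -0.61), replicate 5 (-0.63) or replicate 6 (-0.60). It also did so with normexp background correction (-0.59). The other 5 genes passed the adjusted p but not the fold: Per1 (-0.53), Fkbp5 (-0.35), Nr3c1 (-0.25), Tsc22d3 (0.28) and Sgk1 (0.29). Under scaling by the 75th percentile, which moved the median of all probes by 0.20 (from 0.02 to 0.22), Sgk1 passed both (0.72). The second Nr3c1 probe went the other way (0.50, SE 0.09). Over the same interval 9 of 10 microglia markers were lower in O4+ cells at P10 (median -1.35). So were 4 of 8 endothelial markers (median -0.74) and 3 of 4 pericyte markers (median -0.92). The part of these cells in the fall of Hif3a and Pdk4 was not tested.

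In CD11B+ cells, 1 of the 9 genes rose and 1 fell between P5 and P10, beside 7.96% of all probes (4.49% higher, 3.47% lower), and the ages did not overlap in 4, beside 13.3%. Sgk1 rose 3.14-fold (1.54, SE 0.15, adjusted p = 3.92e-05), its PBS levels being 13.02, 13.35 and 13.90 at P5 and 14.63, 15.00 and 15.18 at P10. Pdk4 was 4.46-fold lower at P10 (-2.13, SE 0.14, adjusted p = 4.86e-06), at 6.30, 6.65 and 7.02 against 8.58, 8.82 and 8.99. The arrays of the ages were apart for both genes. Nr3c1 passed the adjusted p (1.52e-05) with a difference of 0.49 (SE 0.04) on 6 of 6 arrays, under the fold threshold, and Zbtb16 did so with -0.49 (SE 0.14, adjusted p = 0.029). Hif3a (-0.34, interval -0.63 to -0.05, adjusted p = 0.103), Klf9 (0.27, interval -0.16 to 0.69, adjusted p = 0.423) and Fkbp5 (0.06, interval -0.11 to 0.23, adjusted p = 0.686) did not pass, although the Hif3a probe at base 2418 did (-0.79, SE 0.20, adjusted p = 0.0148). Without PBS replicate 6 at P10 the Sgk1 and Pdk4 differences were 1.61 and -2.19, and without PBS replicate 5 at P5 they were 1.46 and -2.11. Without the latter array Klf9 passed the adjusted p, with a difference of 0.44 that was under the fold threshold. In the same arrays the mean signal of the 10 oligodendrocyte lineage markers was 9.84 to 10.40 at P5 and 11.07 to 11.60 at P10 in these CD11B+ samples (6 of 10 called higher, median 0.80), and 5 of 8 endothelial markers were lower (median -0.61). Their part in the changes of Sgk1 and Pdk4 was not tested. In both populations no slide and no scan day held PBS arrays of both ages. Age therefore cannot be told apart from slide or scan day. With the slide as a random block the same genes passed, but such a block cannot separate the 2 either.

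**Figure D4:**
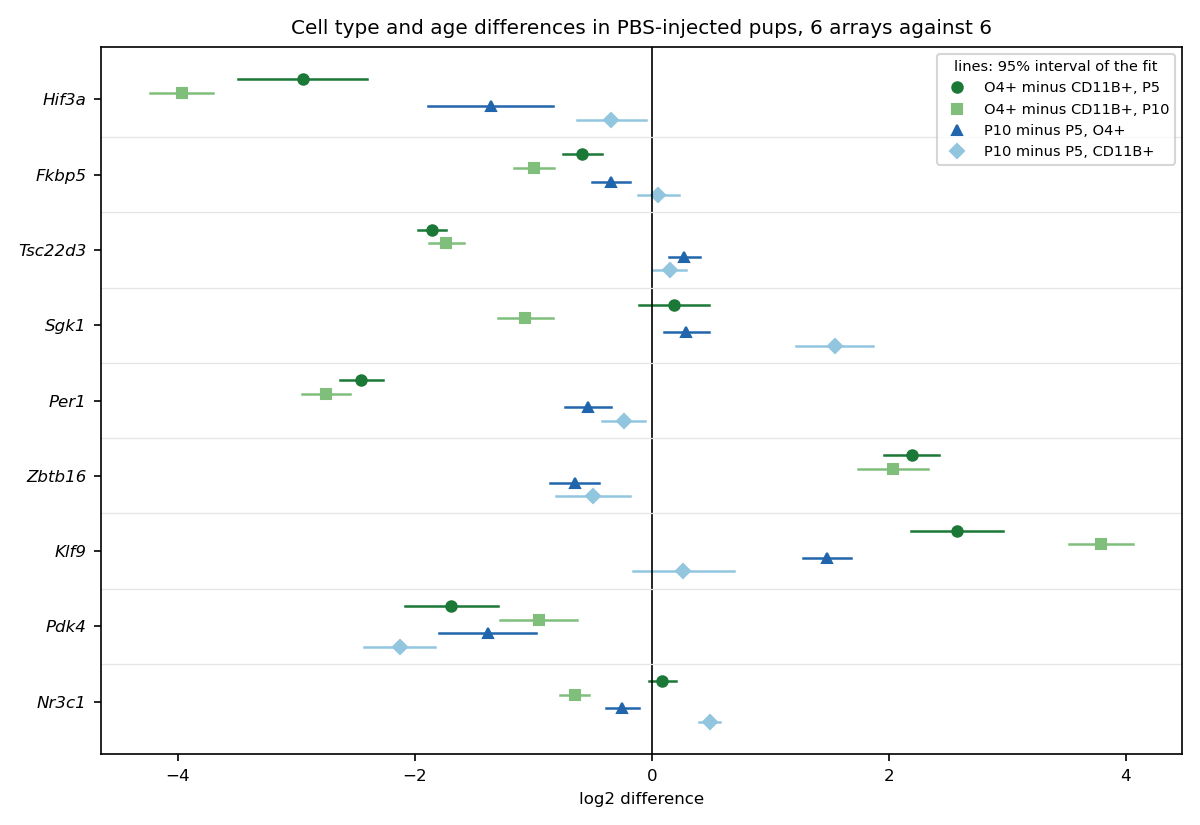
Log2 differences (horizontal axis) of the 9 genes between populations (O4+ minus CD11B+, circles at P5 and squares at P10) and between ages (P10 minus P5, triangles in O4+ and diamonds in CD11B+ cells) in PBS pups, with lines for the 95% confidence interval (6 arrays against 6). Klf9 and Zbtb16 lie to the right of 0 between populations at both ages, and Hif3a lies farthest to the left, at -2.95 and -3.97.

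The order of the 8 groups differed from gene to gene. Among the P5 arrays given IL1B, every O4+ array was above every CD11B+ array for Zbtb16 and Klf9 (means 0.94 apart for each) and Sgk1 (0.81). Every O4+ array was below every CD11B+ array for Hif3a (-2.11), Tsc22d3 (-2.01), Fkbp5 (-1.26) and Per1 (-0.97), while the groups overlapped for Pdk4 (-0.87) and Nr3c1 (-0.01). Fkbp5 had CD11B+ P5 IL1B at the top (13.83 ± 0.19, SD, n = 6) and O4+ P5 IL1B next (12.57 ± 0.15), both apart from their neighbours, and the 3 other CD11B+ groups overlapped between 11.76 and 11.85. Tsc22d3 had all 4 CD11B+ groups (13.10 to 13.96) above all 4 O4+ groups (11.28 to 11.96). Zbtb16 had O4+ P5 IL1B highest (10.56 ± 0.25), and its CD11B+ groups other than P5 IL1B lowest (6.71 to 7.20). Klf9 was highest in O4+ P10 PBS (11.91 ± 0.21), which overlapped O4+ P5 IL1B (11.38 ± 0.21), and CD11B+ P5 IL1B (10.44 ± 0.32) overlapped O4+ P5 PBS (10.43 ± 0.10). Sgk1 was highest in CD11B+ P10 PBS (14.97 ± 0.20) and lowest in CD11B+ P5 IL1B (12.96 ± 0.14), with overlap between all neighbours below the top group. Pdk4 was highest in CD11B+ P5 PBS (8.81 ± 0.16), apart from the next group, and lowest in O4+ P10 PBS (5.73 ± 0.22). Nr3c1 covered the narrowest range, from 12.73 ± 0.11 in O4+ P10 PBS to 13.37 ± 0.05 in CD11B+ P10 PBS.

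Over the 8 group means and 14757 genes, the genes whose pattern was most like that of Hif3a by Pearson's r were Ccl12 (0.99), a chemokine that attracts monocytes, Bcl3 (0.99), an atypical I kappa B protein, Arid5a (0.99), an RNA-binding protein that stabilises inflammatory transcripts, Ch25h (0.99), the cholesterol 25-hydroxylase, and Zc3h12a (0.99), a ribonuclease that degrades inflammatory transcripts. Ccl12 had group means of 10.52 and 14.47 in O4+ cells at P5 without and with IL1B, and 14.19 and 16.18 in CD11B+ cells. Among the other 8 genes, r with Hif3a was 0.97 for Per1 (rank 24), 0.91 for Fkbp5 (rank 514), 0.87 for Tsc22d3 (rank 1069) and 0.78 for Pdk4 (rank 2550). It was 0.13 for Nr3c1, -0.09 for Zbtb16, -0.18 for Sgk1 and -0.47 for Klf9. The 8 points share 2 populations and 1 treatment, so these r are descriptions of patterns of means.

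Related genes were described from 5 lists of 72 genes in all, fixed together with the list of 9 and with earlier results known. The genes named are among those that passed the threshold on these arrays. Their p-values therefore describe these arrays and are not independent support for a response of the lists. Of 21 other genes that glucocorticoids induce in many tissues, 12 were higher and 0 lower with IL1B in O4+ cells at P5, with a median log2 difference of 0.78, against -0.04 over all probes and 3.49% of probes called higher. They included Cebpd, a transcription factor (1.79, SE 0.18, adjusted p = 5.13e-05, limma), Mt2, a metallothionein (1.77, SE 0.21, adjusted p = 0.00019), and Map3k6, a stress kinase (1.73, SE 0.21, adjusted p = 0.000186), each higher on 6 of 6 arrays than on every PBS array. Of the same 21 genes in CD11B+ cells at P5, 9 were higher and 1 lower, with a median of 0.53 against -0.02. Anxa1, which encodes the anti-inflammatory protein annexin A1 that neutrophils also carry, was higher by 3.88 (adjusted p = 5.28e-08), Map3k6 by 2.50 (adjusted p = 2.78e-06) and Ddit4, an inhibitor of mTOR, by 1.46 (adjusted p = 0.000196), whereas the cell cycle inhibitor Cdkn1c was lower (-1.06, adjusted p = 3.2e-05). At P10, 2 were higher and 1 lower in O4+ cells (Nfkbia, 0.60, Angptl4, 0.60, and Plekhf1, -0.75), and with the slide as a block Nfkbia and Angptl4 missed the adjusted p (0.0526 and 0.0525). In CD11B+ cells at P10 limma called 0 of the 21, with 5 at an adjusted p under 0.05 that were under the fold threshold (1 higher, 4 lower), 16 at an unadjusted p under 0.05 and 0 by the methods' equal-variance test. Without PBS replicate 6 it called 2 of them, Anxa1 (1.09, adjusted p = 0.00337) and Cebpd (-0.51, adjusted p = 0.0035). The marker shifts given above for the P5 comparisons stand beside these counts too.

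Few genes of the receptor's own machinery passed the threshold with IL1B, which 5.01% of all probes passed in O4+ and 9% in CD11B+ cells at P5. Of 12 genes (the mineralocorticoid receptor, the steroid-converting enzymes, chaperones and coregulators), limma called 0 in O4+ cells at P5, although 5 had an adjusted p under 0.05, all lower and under the fold threshold: the chaperones Hsp90ab1 (adjusted p = 0.00392), Stip1 (0.00416), Fkbp4 (0.00562) and Ptges3 (0.0402) and the corepressor Ncor1 (0.0216). At an unadjusted p under 0.05 there were 6, and 0 were called by the methods' equal-variance test. In CD11B+ cells at P5, limma called 1 of the 12 higher and 1 lower, with 7 at an adjusted p under 0.05 (2 higher, 5 lower). Hsd11b1, which regenerates active glucocorticoid inside cells, was higher there by 2.48 (SE 0.17, adjusted p = 2.01e-06, limma). Fkbp4, the co-chaperone that carries the receptor to the nucleus, was lower (-0.78, adjusted p = 8.46e-05). Hsd11b1 was also higher in O4+ cells at P10 (0.64, adjusted p = 0.0134), with overlapping arrays. For CD11B+ cells at P10 limma called 0 of the 12, with 2 at an adjusted p under 0.05 (both higher, under the fold threshold), 7 at an unadjusted p under 0.05 and 0 by the methods' equal-variance test.

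Among 19 subunits, hydroxylases and targets of the hypoxia-inducible factors, 3 were higher with IL1B in O4+ cells at P5: the glycolytic regulator Pfkfb3 (1.80, adjusted p = 3.5e-06), the carbonic anhydrase Car9 (0.84, adjusted p = 0.00783) and adrenomedullin, Adm (0.76, adjusted p = 4.2e-05). All probes called higher in that comparison made up 3.49%. The median of the 19 was -0.12, and 11 had an adjusted p under 0.05 by limma (3 higher, 8 lower). The 8 lower genes were under the fold threshold. Epas1, which encodes HIF2A, was lower in CD11B+ cells at P5 (-0.94, adjusted p = 0.00296, limma) and no other gene of the list was called. There 9 of the 19 had an adjusted p under 0.05 (4 higher, 5 lower). At P10 limma called 0 of 19 in O4+ cells, with 4 at an adjusted p under 0.05 (3 higher, 1 lower), 7 at an unadjusted p under 0.05 and 0 by the methods' equal-variance test. The prolyl hydroxylase Egln3 (1.03, adjusted p = 0.0439) and Car9 (0.71, adjusted p = 0.0159) were higher in CD11B+ cells at P10, and neither passed with the slide as a block (0.90, adjusted p = 0.509, and 0.45, adjusted p = 0.405). Of 10 clock genes besides Per1, Nr1d2 was higher in O4+ cells at P5 (0.63, adjusted p = 4.17e-05), and in CD11B+ cells at P5 Per2 was higher (1.00, adjusted p = 5.7e-05) and Arntl lower (-0.62, adjusted p = 0.000222). Of 10 paralogs of the 9 genes, Klf4 was higher in O4+ cells (0.87, adjusted p = 0.00138), and Klf13 was higher (1.15, adjusted p = 1.25e-05) and Tsc22d1 lower (-0.78, adjusted p = 0.00346) in CD11B+ cells at P5. At P10 with IL1B, Sgk2 was lower in O4+ (-0.69, adjusted p = 0.00156) and in CD11B+ cells (-1.84, adjusted p = 0.0215), where it did not pass with the slide as a block (-1.40, adjusted p = 0.458). With the slide as a block Epas1 (-1.31, adjusted p = 0.0704, limma), Arntl (-0.62, adjusted p = 0.0884) and Tsc22d1 (-0.82, adjusted p = 0.0682) did not pass in CD11B+ cells at P5 either. Without PBS replicate 5 the ratio of medians of Arntl fell under the fold threshold (difference of means -0.62). Without PBS replicate 6 in CD11B+ cells at P10, Egln3, Car9 and Sgk2 stayed called, and 3 genes of these lists were added to the 2 given above: Hsd11b1 (0.91), Pfkfb3 (0.55) and Tsc22d2 (-2.19).

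**Figure D5:**
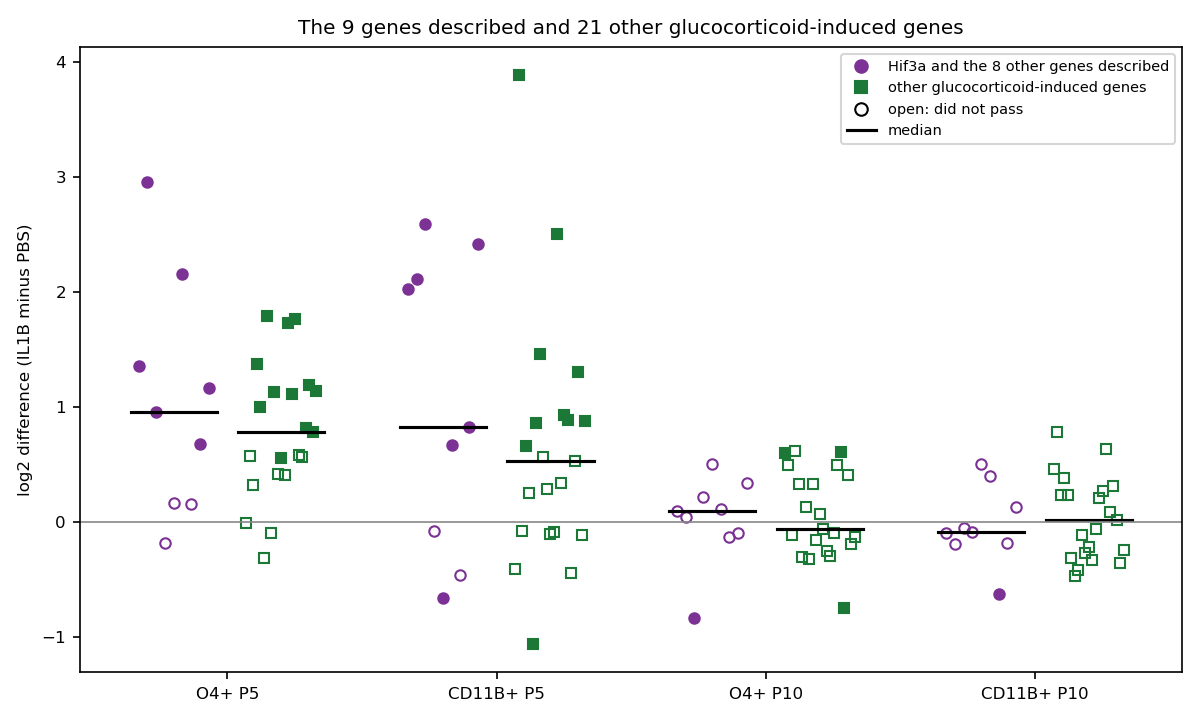
Log2 difference between IL1B and PBS (vertical axis, 6 arrays against 6) of the 9 genes (circles) and of 21 other glucocorticoid-induced genes (squares) in the 4 treatment comparisons, with 1 symbol per gene, filled where it passed the threshold, and a line for the median. The medians of the 21 genes are 0.78 in O4+ and 0.53 in CD11B+ cells at P5, and -0.06 and 0.02 at P10.

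Many genes of these lists differed between the populations in PBS pups, as did many of all probes (41.6% at P5 and 42.4% at P10). Of the 72 related genes, 16 were higher and 28 lower in O4+ cells at P5, and 23 and 23 at P10. Of the 21 other glucocorticoid-induced genes, 3 were higher and 15 lower in O4+ than in CD11B+ cells at P5 (median -1.66, against -0.05 over all probes) and 4 and 14 at P10 (median -1.14). The lower ones included the cell cycle inhibitor Cdkn1a (-3.19 at P5 and -4.17 at P10), and the higher ones Ddit4 (2.75 and 3.01) and Cdkn1c (3.48 and 3.33), as Klf9 and Zbtb16 were. Of the HIF list, Epas1 (2.28 and 1.80), Arnt2 (3.80 and 2.78) and Vegfa (2.69 and 3.13) were higher in O4+ cells, and Car9 (-3.39 and -3.63) and Pfkfb3 (-2.79 and -3.38) were lower, as Hif3a was. Sgk2, the paralog of Sgk1, was at least 104-fold higher in O4+ cells at P5, where it was not well above background in CD11B+ cells, and 6.52 log2 units higher at P10 (adjusted p = 1.83e-09). Between P5 and P10 in O4+ cells, 3 of the 21 rose and 9 fell, beside 8.09% and 9.14% of all probes. Their median was -0.58, against 0.02 over all probes. Plekhf1 (2.04) and Ddit4 (1.00) were among those that rose, and Nfkbia (-1.88), Angptl4 (-1.79) and Cdkn1a (-1.40) among those that fell. In CD11B+ cells over the same days 3 rose and 6 fell, beside 4.49% and 3.47% of all probes. Angptl4 (-1.47) and Mt2 (-1.09) were among those that fell. Of the 19 genes of the HIF list 4 fell, with Egln3 at -2.34. Leaving out replicate 6 of the P10 or replicate 5 of the P5 CD11B+ PBS arrays changed the call of no related gene named for the population or age differences.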

How the data were processed

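RNA from 48 sorted-cell samples was hybridized by the authors to Agilent mouse 8x60K arrays in one colour (Cy3) and read with Feature Extraction 10.7.3.1, which subtracted the background. The values used were the processed signal intensities of the deposited scanner files. The deposited value table, an alternative, holds the ratio of each signal to its array's median, as the authors scaled it: the largest deviation from that ratio was 1.86e-05 on the log2 scale. Log2 intensities, without control spots and 278 non-uniform spots, were quantile-normalized over all arrays and averaged per probe (55681 probes; 0 spots were saturated). Groups came from the labels' cell type, stage and treatment. Each comparison was fitted with limma 3.58.1 (R 4.3.3) over its 12 arrays, with Benjamini-Hochberg adjustment over all probes, a false discovery rate of 0.05 and a ratio of group medians above 1.5, after the study's methods, which used an equal-variance test. The log2 differences printed are of group means, so a value near the fold threshold can lie on its other side from the ratio of medians. SDs are between arrays, and the 6 arrays per group limit the precision. The fit was tested on simulated data. Probe positions are in mm9.

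The 9 genes and all lists were chosen with earlier results of these data known. The genes named are the 9 with all their probes, up to 3 called genes per direction, list and comparison with the largest difference among probes well above background in a group, and the 5 genes most like Hif3a. Alternatives were the 75th percentile scaling, quantile normalization within a cell type, normexp background correction with an offset of 50, the deposited values, bright probes only, no fold threshold, mean log2 folds, the methods' test, the mean over a gene's probes, slide, scan day and replicate number as blocks, and each array left out.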

Additional observations from a re-analysis of the deposited data

Results flagged for a closer look

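In 8 of the 72 sets of 6 arrays (9 genes in 8 groups), the highest or lowest array was far from the others by Dixon's gap ratio, which at its 95% level marks about 5% of sets by chance. Fkbp5 was low on O4+ P10 PBS replicate 6 (gap 0.794 of the group's range), O4+ P10 IL1B replicate 6 (0.681) and CD11B+ P5 PBS replicate 5 (0.631). On that last array, CD11B+ P5 PBS replicate 5, Klf9 was high (0.709), as were the mean signals of the astrocyte (10.44), pericyte (8.28) and neuron (8.34) markers. In O4+ P5 IL1B replicate 3, Hif3a (0.654) and Per1 (0.631) were both low; at 9.89 and 13.69 they were still above every O4+ P5 PBS array. Per1 was low on CD11B+ P10 PBS replicate 2 (0.796), and Sgk1 was low on O4+ P10 IL1B replicate 6 (0.708).

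In 6 of 36 settings, every IL1B array lay on one side of the PBS mean at one age or in one population and on the opposite side at the other. These differences between settings were not tested. In O4+ cells the IL1B difference of Klf9 was 0.96 at P5 and -0.84 at P10, 1.79 apart, and that of Nr3c1 was -0.19 and 0.22, -0.40 apart. In CD11B+ cells the P5 difference minus the P10 difference was 2.30 for Hif3a, 1.01 for Tsc22d3 and -1.16 for Pdk4. At P10 the O4+ difference of Nr3c1 minus the CD11B+ difference was 0.30.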

How the results depend on the processing

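No difference of the 9 genes reversed in sign past the threshold under any alternative run. Setting aside left-out arrays, 34 recomputed counts of probes or genes past the threshold moved by over 1.5 times and 224 did not; of the tested differences of the 9 genes, 3 lost their call, 9 gained one and 402 did neither. Probes called numbered 2788, 2295, 5009 and 1120 for IL1B in O4+ P5, O4+ P10, CD11B+ P5 and CD11B+ P10, then 9593 and 4430 for age in O4+ and CD11B+ cells, and 23178 for the populations at P5. With normexp background they were 1372, 1024 and 2593 in the first 3, 4796 and 2106 for age and 15073 for the populations at P5. With no fold threshold they were 10362, 6243, 11846 and 3359 for IL1B and 19027 and 11725 for age. The 75th percentile scaling gave 3605 in O4+ P10. The slide as a block gave 2147 in CD11B+ P5 and 2 in CD11B+ P10, where 681 remained with the scan day as a block; as a random block the scan day gave 2105 for age in CD11B+ cells. Of the 9 genes, no fold threshold gave 3 in O4+ P10 and 9 and 4 for age, and in CD11B+ P10 the deposited values and the slide block each gave 0 by limma. Of the 72 related genes, no fold threshold gave 43, 17, 39 and 15 for IL1B (17, 5, 17 and 3 with it) and 45 and 37 for age (26 and 14 with it); the deposited values gave 8 in O4+ P10 and 5 in CD11B+ P10, and the slide block 3 and 0. Leaving out 1 array gave 339 to 2595 probes, 0 to 2 of the 9 genes and 1 to 8 related genes in CD11B+ P10, and 1 to 2 and 3 to 7 in O4+ P10. The cause of these moves was not tested. The share of called probes that were higher changed by over 10 percentage points with the deposited values in O4+ P5 (58.3%, from 69.8%), O4+ P10 (51.6%, from 63.4%), CD11B+ P10 (64.7%, from 50.9%) and the populations at P5 (34.5%, from 47.5%), and with the 75th percentile in O4+ P10 (42.5%) and CD11B+ P5 (54.5%, from 44.3%). These scalings moved the median of all probes by up to 0.20 between treatments or ages and by -0.40 between the populations at P5. In single genes beyond those already given, Per1 in CD11B+ P5 fell under the threshold with the mean over its 2 probes (0.39), the second of which was dim, and Pdk4 between the populations at P10 with normexp background (-0.51).

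Same-numbered arrays are not stated to share animals, and their deviations did not all correlate above 0.1, so the number was not taken as a pairing. With the number as a block, 656 probes were called in CD11B+ P10 and 3 related genes in O4+ P10, and the call of none of the 9 genes changed. Between O4+ and CD11B+ arrays every sample correlated best with its own number in the P10 IL1B groups (6 of 6, r from 0.266 to 0.713). So did 5 of 6 in the P5 PBS groups, 4 of 6 in the P10 PBS groups and 2 of 6 in the P5 IL1B groups. The 2 populations came from the same brains, but that equal numbers mark the same brains is a hint from the data only.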
